A study of Homo sapiens with 18 samples.

Results

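The response of KO1 cells to 10 µM MK2206 over 4 h was examined by comparing the 3 KO1+MK libraries with the 3 KO1 libraries, which are 6 of the 18 RNA-seq libraries of the study. MDA-MB-231 is a triple negative breast cancer line, and KO1 is a pool of these cells, not a clone, in which CRISPR-Cas9 with the first of 2 sgRNA sets was directed at GPS2, a subunit of the NCoR/SMRT corepressor complex. KO1 cells carried this edit with and without the drug, were grown in DMEM with 10% FBS, and served as controls untreated (no vehicle is named in the labels). The other groups, each with 3 libraries, were unmodified parental cells (WT), KO2 cells made with the second sgRNA set, KO2 cells given the same dose of MK2206 for the same time (KO2+MK), and parental cells with myristoylated, constitutively active AKT (myrAKT). Since no parental cells were treated, the effect of the drug and its dependence on GPS2 cannot be told apart in these libraries. Genes were tested where 3 or more of the 18 libraries reached 1 CPM (the count of a gene scaled by the library's total), which left 15587 of 57448 genes. The labels do not say whether the 3 libraries of a group came from separate cultures, so the p values measure the spread between these libraries, which may be technical. In bulk libraries, a change of RNA per cell and a change in the mix of cells within the pool cannot be told apart.

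MK2206 is an allosteric inhibitor that holds AKT in a closed form that cannot reach the membrane. Active AKT phosphorylates FOXO factors and keeps them in the cytoplasm, releases mTORC1 from TSC1/TSC2 and restrains GSK3, so that growth, ribosome production and sterol synthesis are favoured. When AKT is inhibited, FOXO factors enter the nucleus and activate genes for receptors and adaptors of the insulin pathway, cell cycle inhibitors and autophagy, a feedback known from many tumour cells. RNA levels here report on these programs only indirectly, as these libraries hold no measure of phosphorylation.

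Between 37501225 and 39319910 reads were counted in the KO1 libraries and between 23419198 and 29365207 in the KO1+MK libraries, so depth moved with treatment, and its part in the counts of genes was examined by drawing every library down to the smallest total. KO1+MK replicate 1 stood apart from its 2 replicates. Its log2 CPM correlated with theirs at 0.992 in both pairs, against 0.997 between replicates 2 and 3 and 0.997 in each pair of KO1 libraries. It had the fewest counted reads and yet the most genes with a count of the 6 libraries (31146). For 3851 genes with a mean log2 level of at most 2, its median shift from the mean of its 2 replicates was 0.15. The shift of each replicate, taken in the same way, was −0.09 and −0.07. The mitochondrial rRNA MT-RNR2 was at 24.9, 141 and 52.7 CPM in KO1 and at 1.04, 26.6 and 22.3 CPM in KO1+MK, so this library was the lowest, and the cancer-testis gene XAGE1A was at 13 CPM in it and at most 0.653 CPM in the other 5. The overall counts of called genes are therefore given with and without it, as are list counts that moved by more than 1.5 times. The epithelial and mesenchymal markers VIM, CD44, KRT8, KRT18, EGFR, FOSL1 and CAV1 were at 197 CPM or more in each of the 6 libraries, and LCN2 at no more than 2 counts. The sum of these 8 markers of the line, scaled by library total, was lower with treatment, at 4123 to 4141 CPM in KO1 and 3596 to 3800 CPM in KO1+MK. Of the 7 tested, all with negative log2 fold changes, KRT18 (−0.36, adjusted p = 2.99e-05) and CAV1 (−0.42, adjusted p = 4.84e-06) passed an adjusted p of 0.001. Of 6 genes listed as low or absent in the line, CDH1 and PGR were at no more than 3 counts, ESR1 at 0.667 to 1.07 CPM, GATA3 at 2.18 to 4.6 CPM, EPCAM at 7.43 to 9.78 CPM and ERBB2 at 76.9 to 87.0 CPM, so 4 of them were detected above the filter. Of 12 markers of other cell types, PTPRC, CD3E, COL1A2, ALB and HBB were at 0 to 5 counts, and the sum of all 12 was 29.6 to 29.8 CPM in KO1 and 32.1 to 35.1 CPM in KO1+MK, with COL1A1 and PDGFRB as its main parts, and COL1A1 passed an adjusted p of 0.001 (0.35, adjusted p = 0.000721). The part of these shifts in the results was not tested, beyond the values given without the library.

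The targeted gene was read first. GPS2 (ENSG00000132522, chromosome 17, 7311324 to 7315564, minus strand of hg38) was at 4.53, 4.46 and 4.51 CPM in KO1 and 5.12, 4.78 and 5.84 CPM in KO1+MK, a log2 fold change of 0.25 that missed the threshold (adjusted p = 0.0808). Its level was 4.57 ± 0.278 CPM (SD, n = 3) in WT, so the RNA was not lower in the libraries labelled KO1, and counts per gene do not show whether a transcript carries an edit. Of the drug's targets, AKT1 was at 145, 139 and 141 CPM in KO1 and 121, 136 and 134 CPM in KO1+MK (log2 fold change −0.10, adjusted p = 0.0559). AKT2 fell from 111, 107 and 109.9 CPM to 91.9, 95.3 and 96.8 CPM, a log2 fold change of −0.18 (adjusted p = 0.000558), and this call was lost with any single library left out other than KO1+MK replicate 1, with adjusted p values of 0.00116 to 0.00591.

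At an adjusted p of 0.001 or less, 515 genes were 1.5-fold or more higher in KO1+MK than in KO1 (3.3% of the genes tested) and 266 were lower (1.71%). The rises reached a log2 fold change of 4.01 and the falls −2.11, and 158 rises and 54 falls were at least 2-fold. Drawing all libraries down to the smallest gave 451 higher and 265 lower genes, of which 437 and 240 were among those called at full depth. Without KO1+MK replicate 1, 466 genes were higher and 313 lower, and 433 and 246 of them were shared with the full comparison. In that fit the estimated common dispersion was 0.00086, against 0.00165 with all 6 libraries, and the prior degrees of freedom 16.1, against 8.7. Both enter the p values, and their part in these counts was not tested. Testing each fold change against 1.5 with edgeR's glmTreat left 105 higher and 37 lower genes. Without a minimum fold, the rule used for the gene lists that follow, 1697 genes were higher (10.9%) and 1288 lower (8.26%). Protein-coding genes made up 92.4% of the higher and 75.2% of the lower genes, against 81.4% of all genes tested, whereas lncRNAs made up 4.27%, 19.2% and 10.1%. Lower genes also had a shorter median genomic span of 13.8 kb, against 39.3 kb for higher genes and 27.5 kb for all genes tested, and these shares are descriptions with no test.

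**Figure D1:**
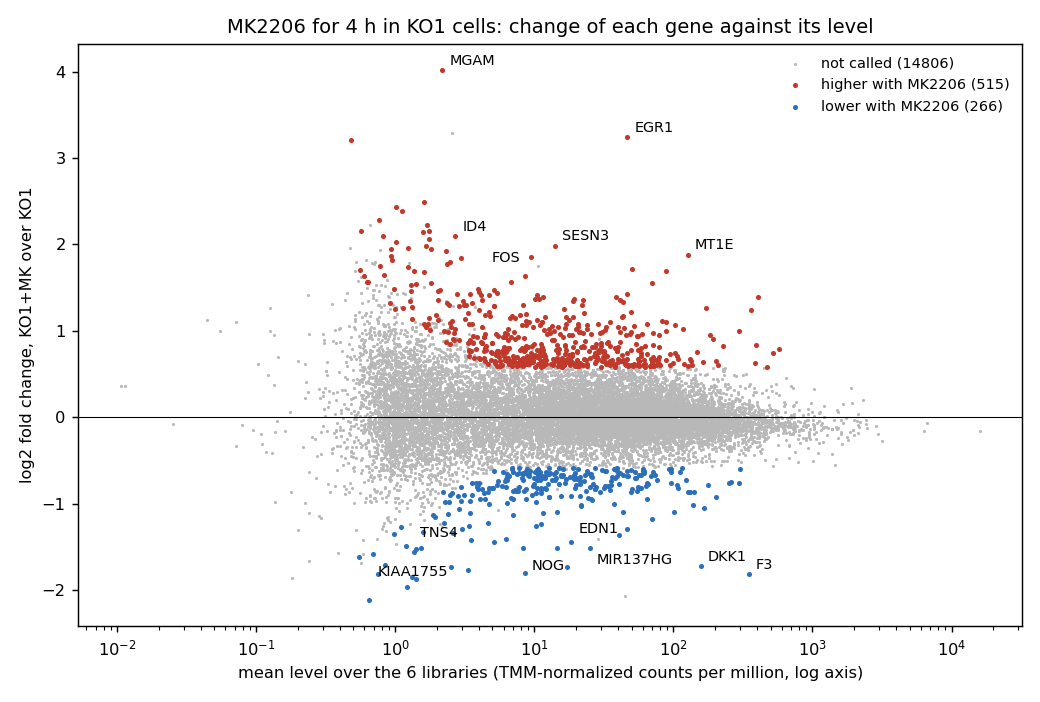
Each point is 1 of 15587 genes, with its mean level over the 6 libraries in TMM-normalized CPM on a log x axis and its log2 fold change of KO1+MK over KO1 on the y axis. The 515 higher genes are red and the 266 lower genes are blue, and MGAM (4.01) and EGR1 (3.24) lie at the top while F3 (−1.82) and DKK1 (−1.72) lie low at high levels.

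The 10 largest rises among genes with a symbol, at least 100 normalized counts in the higher group and groups that did not overlap (28.3% of all genes were higher and 27.3% lower with no overlap) were led by MGAM, the intestinal maltase-glucoamylase (ENSG00000257335, chromosome 7, 141907813 to 142106747, plus strand). MGAM was at 0.29, 0.216 and 0.249 CPM in KO1 and 5.62, 3.00 and 3.61 CPM in KO1+MK (log2 fold change 4.01, SE 0.307, adjusted p = 5.02e-07), which rests on 8 to 135 counts per library and on reads that a close paralog, MGAM2, could share. EGR1, an immediate early zinc finger factor, followed with 9.25, 8.85 and 9.11 CPM in KO1 and 116, 69.5 and 67.7 CPM in KO1+MK (log2 fold change 3.24, SE 0.192, adjusted p = 7.11e-08). All treated libraries lay above the untreated ones for both genes, as the naming rule requires, and in both of them KO1+MK replicate 1 was the highest.

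Several of the other large rises were developmental regulators and receptors expressed at low levels. ID4, an inhibitor of basic helix-loop-helix factors, was at 1.05, 1.03 and 1.02 CPM in KO1 and 4.25, 4.38 and 4.43 CPM in KO1+MK (log2 fold change 2.09, SE 0.149, adjusted p = 2.7e-07). UNC5B, a netrin receptor, was at 1.21, 0.812 and 0.914 CPM in KO1 and 3.41, 3.00 and 4.57 CPM in KO1+MK, and EPHA7, an Eph receptor kinase, was at 1.37, 1.35 and 1.22 CPM in KO1 and 5.20, 4.04 and 4.71 CPM in KO1+MK. Groups that do not overlap were required by the naming rule for each of these genes. MAFA, a bZIP factor known from pancreatic beta cells, was at 1.19, 0.812 and 1.25 CPM in KO1 and 3.62, 3.34 and 3.92 CPM in KO1+MK (log2 fold change 1.77, SE 0.187, adjusted p = 7.89e-06). FOS, the AP-1 subunit, was at 4.69, 3.95 and 3.79 CPM in KO1 and 16.6, 13.4 and 14.5 CPM in KO1+MK (log2 fold change 1.86, SE 0.109, adjusted p = 6.65e-08). ZNNT1, a long noncoding RNA next to ZNF706, was at 0.949, 1.46 and 0.941 CPM in KO1 and 4.87, 3.60 and 3.06 CPM in KO1+MK (log2 fold change 1.80, SE 0.228, adjusted p = 3.57e-05), while ZNF706 itself had a log2 fold change of −0.04 (adjusted p = 0.443). The remaining members of the 10, SESN3 and MT1E, are described with their gene groups.

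The 10 largest falls under the same rule included secreted regulators and noncoding RNAs. F3, which encodes tissue factor, the initiator of coagulation (ENSG00000117525, chromosome 1, 94529173 to 94541759, minus strand), was at 558, 499 and 573 CPM in KO1 and 137, 159 and 159 CPM in KO1+MK (log2 fold change −1.82, SE 0.0592, adjusted p = 6.59e-10), a 3.53-fold fall. DKK1, a secreted Wnt antagonist, was at 238, 238 and 248 CPM in KO1 and 55.4, 79.9 and 79.9 CPM in KO1+MK (log2 fold change −1.72, SE 0.091, adjusted p = 2.75e-08), and NOG, the BMP antagonist noggin, was at 22.6, 20.7 and 21.2 CPM in KO1 and 6.45, 7.38 and 8.25 CPM in KO1+MK (log2 fold change −1.52, SE 0.0789, adjusted p = 2.45e-08). In all 3 genes every treated library was below every untreated one, as the naming rule requires. EDN1, the vasoconstrictor peptide endothelin 1, was at 28.2, 24.8 and 28.2 CPM in KO1 and 8.45, 10.6 and 10.2 CPM in KO1+MK (log2 fold change −1.44, SE 0.0796, adjusted p = 4.01e-08). TNS4, a focal adhesion protein of the tensin family, was at 4.88, 6.38 and 4.13 CPM in KO1 and 2.08, 1.78 and 1.79 CPM in KO1+MK (log2 fold change −1.43, SE 0.179, adjusted p = 3.32e-05), and CCDC8, a component of the cullin 7 complex, was at 12.5, 12 and 12.8 CPM in KO1 and 4.12, 4.23 and 4.50 CPM in KO1+MK (log2 fold change −1.51, SE 0.0825, adjusted p = 3.86e-08). Treated and untreated libraries were separate for each of them, as the naming rule requires. KIAA1755 was at 5.64, 5.22 and 4.73 CPM in KO1 and 1.54, 1.34 and 1.62 CPM in KO1+MK (log2 fold change −1.77, SE 0.144, adjusted p = 8.6e-07).

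The other 3 of the largest falls were long noncoding RNAs. MIR137HG, the host transcript of miR-137, was at 40.9, 32.2 and 38.3 CPM in KO1 and 11.7, 13.5 and 13.2 CPM in KO1+MK (log2 fold change −1.51, SE 0.0871, adjusted p = 5.82e-08). HK2-DT, divergent to the hexokinase 2 gene (ENSG00000272711, chromosome 2, 74832655 to 74833987, minus strand), was at 3.40, 4.06 and 4.26 CPM in KO1 and 1.21, 1.52 and 0.756 CPM in KO1+MK (log2 fold change −1.73, SE 0.21, adjusted p = 2.51e-05), and RGMB-AS1, antisense to the BMP coreceptor gene RGMB, was at 7.09, 7.55 and 7.81 CPM in KO1 and 2.87, 2.52 and 2.72 CPM in KO1+MK (log2 fold change −1.45, SE 0.108, adjusted p = 4.06e-07). For comparison, HK2 had a log2 fold change of −0.42 (adjusted p = 1.78e-06) and RGMB of −0.16 (adjusted p = 0.0444). How strand was handled in the counting is not given in the sources used here, so reads from a gene and its antisense partner may not be separated.

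**Figure D2:**
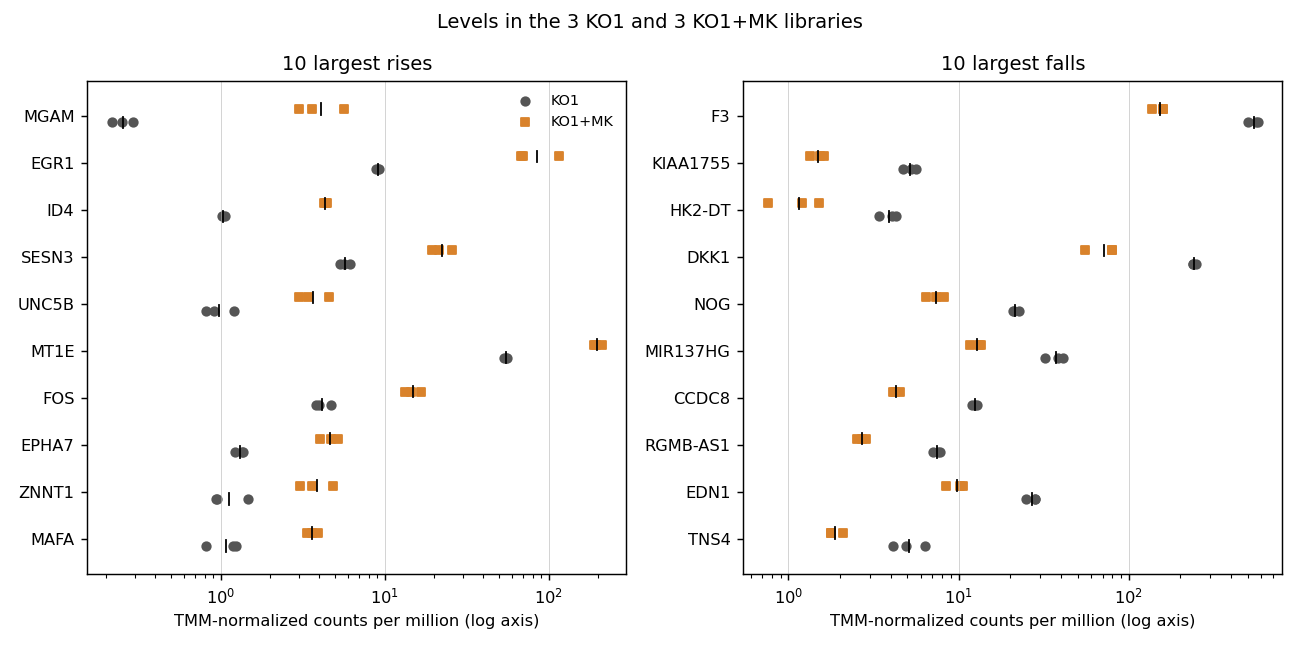
Levels of the 10 largest rises (left) and 10 largest falls (right) in TMM-normalized CPM on log x axes, with 1 point per library, gray circles for KO1, orange squares for KO1+MK and a bar at each group mean. For all 20 genes the 3 treated libraries lie on one side of the 3 untreated ones, as the naming rule requires, with the widest relative spread among treated libraries in MGAM, EGR1 and HK2-DT.

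Genes known as FOXO targets were examined next, since FOXO factors are direct substrates of AKT. Of 38 measured members, 21 rose and 4 fell (adjusted p of 0.001 or less), with a median log2 fold change of 0.46 against 0.01 over all genes tested. SESN3, a stress-responsive regulator of mTORC1 (ENSG00000149212, chromosome 11, 95165513 to 95232541, minus strand), was at 5.33, 5.63 and 6.17 CPM in KO1 and 25.6, 19.5 and 21.6 CPM in KO1+MK (log2 fold change 1.98, SE 0.107, adjusted p = 3.2e-08). CDKN1A, which encodes the CDK inhibitor p21, was at 35.9, 35.3 and 37.5 CPM in KO1 and 104, 102 and 106 CPM in KO1+MK (log2 fold change 1.55, SE 0.039, adjusted p = 8.03e-11). SESN3 rose 3.95-fold, with the separate groups that its naming rule requires, and CDKN1A rose 2.92-fold. Metabolic and growth-arrest targets rose as well, among them PDK4, the pyruvate dehydrogenase kinase (1.42), the cyclin G2 gene CCNG2 (1.39), the ubiquitin ligase gene FBXO32 (1.16), TXNIP, an inhibitor of glucose uptake (1.11), and the proapoptotic BCL2L11 (0.75). FOXO1 (0.51) and FOXO4 (0.68) themselves rose, and FOXO3 had a log2 fold change of 0.07 that did not pass. IGFBP1 (−0.92), CITED2 (−0.78), GADD45A (−0.31) and KLF6 (−0.25) fell, while CDKN1B (0.19), BCL6 (0.31) and BBC3 (0.49) did not pass the test. PIK3IP1, an inhibitor of PI3K, had a log2 fold change of 1.01 with an adjusted p of 0.00122. Leaving out single libraries, 17 to 22 members rose and 2 to 4 fell, the 2 being reached without KO1 replicate 1, 2 or 3.

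Promoter sequences of 3 of the 18 risen FOXO targets that had one, TXNIP, BCL2L11 and MXI1, held the core FOXO site GTAAACA on either strand within 250 bases before the gene start in RefSeq (GRCh38.p14, 32 of the 38 tested members matched, of which 4 held it, 1 of them not risen). Among the 16059 promoter windows of the tested genes 2.28% held it, and among the 565 windows of genes higher with MK2206 3.19% did, against 2.76% of the windows of lower genes. TXNIP is shown as the member of the 3 with the largest rise, with the site in capitals.
TXNIP, chr1:145996580-145996829, minus strand: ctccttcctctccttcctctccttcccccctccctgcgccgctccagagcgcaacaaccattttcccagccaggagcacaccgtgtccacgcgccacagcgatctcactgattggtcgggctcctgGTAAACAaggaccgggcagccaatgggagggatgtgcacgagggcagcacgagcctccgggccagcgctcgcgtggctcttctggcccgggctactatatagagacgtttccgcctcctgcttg

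Receptor kinases and their adaptors, the genes in which feedback to AKT inhibition is known, moved in both directions, with 6 of 28 higher and 5 lower and a median of 0.05. FGFR3 was at 1.79, 1.79 and 1.44 CPM in KO1 and 3.50, 3.04 and 3.64 CPM in KO1+MK (log2 fold change 1.04, SE 0.16, adjusted p = 0.000175). IRS1, the main insulin receptor substrate of many epithelial cells, was at 169, 155 and 169 CPM in KO1 and 80.7, 92.3 and 92.1 CPM in KO1+MK (log2 fold change −0.87, SE 0.0482, adjusted p = 4.09e-08). The direction thus differed between IRS1 and its relative IRS2, which rose (0.66). ERBB3, the kinase-impaired partner of HER2 (0.63), INSR, the insulin receptor (0.43), the adaptor gene GAB1 (0.77) and EPHA2 (0.29) rose too. MET (−0.24), AXL (−0.23), MST1R (−0.31) and GAB2 (−0.23) fell by small amounts, and EGFR (−0.11), IGF1R (0.20) and ERBB2 (0.07) did not pass. The call for FGFR3 was lost without KO1 replicate 1, KO1 replicate 3 or KO1+MK replicate 3 (adjusted p of 0.0012 to 0.00179). The number that fell was 2 without KO1 replicate 1, 2 or 3, and 3 without KO1+MK replicate 2 or 3, while 7 rose and 6 fell without KO1+MK replicate 1.

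Among 40 components of the PI3K and AKT pathway, 13 rose and 5 fell. PIK3R1, the p85 regulatory subunit of PI3K, was at 28, 29 and 30.0 CPM in KO1 and 54.3, 48.5 and 48.2 CPM in KO1+MK (log2 fold change 0.82, SE 0.0582, adjusted p = 2.72e-07). DDIT4, an inhibitor of mTORC1 also called REDD1, was at 23.9, 26.3 and 21 CPM in KO1 and 40.1, 38.7 and 40.3 CPM in KO1+MK (log2 fold change 0.77, SE 0.0678, adjusted p = 1.78e-06). All treated libraries were above all untreated ones for both genes. The phosphatase gene PHLPP2 (0.58), the mTORC1 restrainer TSC1 (0.49), EIF4EBP2, which encodes the translation repressor 4E-BP2 (0.54), the upstream kinase gene PDPK1 (0.49), the mTORC2 subunit RICTOR (0.33) and the AKT-related kinase SGK1 (0.46) rose. INPP4B (−0.30), PHLPP1 (−0.28), EIF4EBP1 (−0.26), MLST8 (−0.34) and AKT2 fell. Leaving out a single library gave 12 to 14 higher members and 1 to 5 lower members, with 1 without KO1 replicate 1 or KO1+MK replicate 2, 2 without KO1 replicate 3 and 3 without KO1 replicate 2.

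Immediate early genes, which answer to growth factor and stress signals within an hour, showed some of the largest changes. Of 28 measured members, 18 rose and 3 fell, with a median of 0.58, and EGR1 led the list. ARC, an activity-regulated cytoskeletal protein best known from neurons, was at 0.369, 0.568 and 0.526 CPM in KO1 and 3.41, 2.11 and 2.65 CPM in KO1+MK (log2 fold change 2.50, SE 0.259, adjusted p = 6.71e-06), on 14 to 82 counts per library. The nuclear receptors NR4A3 (2.43) and NR4A2 (1.56), the AP-1 members JUNB (1.36) and FOSB (0.96), ATF3 (1.07), and MCL1, an antiapoptotic BCL2 relative (0.83), rose as well. BTG2, an antiproliferative gene, was at 1.77, 2.35 and 1.91 CPM in KO1 and 4.62, 4.27 and 4.16 CPM in KO1+MK (log2 fold change 1.14, SE 0.148, adjusted p = 4.39e-05). MYC (327 ± 7.60 CPM (SD, n = 3) in KO1 and 191 ± 23.6 CPM (SD, n = 3) in KO1+MK, log2 fold change −0.75), CCN1 (−0.55) and JUN (−0.50) fell, and 5 members fell with DESeq2 or without the low-count filter. Without KO1+MK replicate 1, the library in which EGR1 was highest, 18 rose and 5 fell, and EGR1 kept a log2 fold change of 2.93 (adjusted p = 9.42e-19).

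The EGR1 promoter is shown for the gene with the largest rise among well expressed genes. It held 1 match to CCATATTAG (in capitals), a fixed form of the serum response element core. This form was present in 0.0872% of all promoter windows. Of 14 risen immediate early genes with a promoter sequence, EGR1 was the 1 with this match. Other forms of the element were not searched, so the rest of the EGR1 window and the other promoters may hold them.
EGR1, chr5:138465229-138465478, plus strand: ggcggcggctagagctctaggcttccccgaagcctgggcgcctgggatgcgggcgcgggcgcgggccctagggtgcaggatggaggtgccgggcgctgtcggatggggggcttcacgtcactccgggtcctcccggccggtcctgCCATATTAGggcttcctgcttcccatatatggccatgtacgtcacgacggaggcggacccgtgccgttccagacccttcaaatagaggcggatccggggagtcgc

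Feedback genes of MAPK signalling held more rises than falls, 12 of 26 being higher and 2 lower, with a median of 0.21. SPRY4, a Sprouty inhibitor of receptor kinase signalling, was at 136, 138 and 133 CPM in KO1 and 260.2, 241 and 248 CPM in KO1+MK (log2 fold change 0.91, SE 0.0394, adjusted p = 5.74e-09). TRIB1, a pseudokinase that directs COP1 to its substrates, was at 34.1, 35.1 and 35.1 CPM in KO1 and 54.4, 50.1 and 55.3 CPM in KO1+MK (log2 fold change 0.64, SE 0.0483, adjusted p = 4.47e-07). The ERK phosphatase genes DUSP6 (0.57) and DUSP5 (0.57) and the ETS factor genes ETV1 (0.42) and ETV5 (0.34) rose, while SPRY1 (−0.27), SPRY2 (0.17) and DUSP4 (0.13) did not pass. CCND1 (−0.40) and DUSP14 (−0.27) fell, and 1 fell without KO1 replicate 1, KO1 replicate 3 or KO1+MK replicate 2, while 14 rose and 2 fell without KO1+MK replicate 1.

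Metallothioneins, small proteins that bind zinc and copper, rose with the zinc exporter SLC30A1. Of 9 measured members of the metallothionein and zinc transport list, 5 rose and 1 fell, with a median of 0.77, and 8 further members, among them MT1F and MT1G, were below the filter at no more than 7 counts. MT1E (ENSG00000169715, chromosome 16, 56625475 to 56627112, plus strand) was at 55.2, 55.6 and 53.8 CPM in KO1 and 211, 189.5 and 194 CPM in KO1+MK (log2 fold change 1.88, SE 0.0475, adjusted p = 8.03e-11). SLC30A1 was at 43.2, 41.3 and 42.9 CPM in KO1 and 141, 131 and 132 CPM in KO1+MK (log2 fold change 1.69, SE 0.0438, adjusted p = 8.03e-11). The 3.68-fold and 3.23-fold rises exceeded the spread of the libraries many times over. MT2A, a ubiquitous member, was at 228 ± 15.3 CPM (SD, n = 3) in KO1 and 589.9 ± 11 CPM (SD, n = 3) in KO1+MK, a log2 fold change of 1.40. MT1X was at 25.6 ± 0.817 CPM (SD, n = 3) in KO1 and 67.8 ± 2.88 CPM (SD, n = 3) in KO1+MK (1.43). MTF1, the zinc-sensing factor that activates these genes (0.77), rose, the zinc importer gene SLC39A10 (−0.30) fell, and MT1A (−0.28), SLC39A8 (−0.03) and SLC39A14 (−0.10) did not pass. Metallothionein genes are near-identical copies, so the split of reads between them is uncertain. These counts were the same with each library left out in turn.

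The metal response element, searched as TGCACNC or TGCGCNC on both strands, was found in the RefSeq promoters of 3 of the 4 risen members that had a promoter sequence. Of the 6 tested members with a promoter sequence 4 held it, so a member not called higher held it too. MT2A held 7 matches in 250 bases, MT1X 4 and SLC30A1 1. At least 1 match was present in 31.4% of all promoter windows and at least 4 in 0.467%, so the single match of SLC30A1 is common and the number in MT2A and MT1X is not. The 3 promoters are printed to show how the matches, in capitals, are spaced up to the gene start, which follows the last base.
MT2A, chr16:56608334-56608583, plus strand: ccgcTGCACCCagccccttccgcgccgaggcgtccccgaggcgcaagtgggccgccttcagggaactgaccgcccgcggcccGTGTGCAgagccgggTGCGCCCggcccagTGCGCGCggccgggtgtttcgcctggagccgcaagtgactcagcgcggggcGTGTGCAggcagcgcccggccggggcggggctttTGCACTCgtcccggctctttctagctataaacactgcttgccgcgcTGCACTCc
MT1X, chr16:56682220-56682469, plus strand: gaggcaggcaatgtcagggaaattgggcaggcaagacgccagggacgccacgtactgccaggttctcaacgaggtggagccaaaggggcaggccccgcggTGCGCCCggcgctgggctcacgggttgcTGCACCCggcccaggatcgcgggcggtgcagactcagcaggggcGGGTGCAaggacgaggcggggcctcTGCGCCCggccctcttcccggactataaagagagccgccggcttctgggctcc
SLC30A1, chr1:211579162-211579411, minus strand: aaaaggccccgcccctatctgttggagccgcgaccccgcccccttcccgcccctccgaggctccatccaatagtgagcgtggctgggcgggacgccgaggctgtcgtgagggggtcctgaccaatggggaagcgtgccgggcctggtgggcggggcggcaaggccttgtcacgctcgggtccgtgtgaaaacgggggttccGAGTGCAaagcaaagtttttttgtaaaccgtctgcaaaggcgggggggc
Over all called genes, the element was present in 32.7% of the windows of higher genes and in 28.0% of those of lower genes. A CCAAT box (CCAAT on either strand) was present in 41.4% of the windows of higher genes, 28.0% of those of lower genes and 32.7% of all windows, and an AP-1 site (TGACTCA) in 1.59%, 5.91% and 3.17%. In the same order, an E-box (CACGTG) was present in 5.66%, 9.45% and 8.03%, a CRE (TGACGTCA) in 1.59%, 1.97% and 2.46%, and a sterol regulatory element (CACCCCAC) in 1.06%, 2.36% and 2.25%, the last in 0 of 8 risen sterol and fatty acid synthesis genes with a promoter sequence. These shares are descriptions of letters in a window and were not tested.

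Sterol genes rose in part. INSIG1, the sterol-sensing anchor that retains SREBP factors in the endoplasmic reticulum, was at 210.5, 215 and 223 CPM in KO1 and 505, 508 and 499 CPM in KO1+MK (log2 fold change 1.25, SE 0.0351, adjusted p = 1.75e-10). Its replicates differed by a few percent, and the groups lay far apart. Of 37 members of the sterol and fatty acid synthesis list, 10 rose and none fell (1 fell at an unadjusted p under 0.05 in edgeR and none was called lower by DESeq2), including IDI1 (0.55), STARD4 (0.51) and HMGCS1 (0.33). The median was 0.10, and SQLE (0.08), FASN (0.15), SREBF1 (−0.06) and SREBF2 (−0.04) did not pass. With 1 library left out, 10 to 15 members rose. Among 9 genes of sterol efflux and LXR targets 2 rose and 1 fell. The cholesterol transporter ABCG1 was at 2.03, 1.84 and 1.5 CPM in KO1 and 2.96, 3.93 and 3.82 CPM in KO1+MK (log2 fold change 1.02, SE 0.168, adjusted p = 0.000303), a call lost with any single library left out other than KO1+MK replicate 1 (adjusted p of 0.00126 to 0.00281). MYLIP, a ubiquitin ligase induced by LXR, was at 13.5, 13.2 and 13.5 CPM in KO1 and 21.5, 21.1 and 20.5 CPM in KO1+MK (log2 fold change 0.67, SE 0.0562, adjusted p = 1.05e-06). ABCA1 (0.05) did not pass.

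Many ribosome biogenesis genes fell. Of 82 measured members, 48 were lower and none higher, against 8.26% of all tested genes called lower (2 were higher at an unadjusted p under 0.05 in edgeR, none was called higher by DESeq2, and 1 was with library totals and with the 12 KO libraries in 1 fit), and the median was −0.28. RRS1, an assembly factor of the large ribosomal subunit, was at 30.5, 28 and 28.7 CPM in KO1 and 12.1, 15.1 and 15.1 CPM in KO1+MK (log2 fold change −1.01, SE 0.0717, adjusted p = 2.62e-07). PPRC1, a PGC-1 related coactivator counted with this list, was at 185, 173 and 186 CPM in KO1 and 91.6, 103 and 99.4 CPM in KO1+MK (log2 fold change −0.86, SE 0.0424, adjusted p = 1.45e-08). No treated library reached the level of an untreated one in either gene. Subunits of RNA polymerase I fell in part. POLR1B was at 72.4, 73.3 and 76.1 CPM in KO1 and 44.8, 49 and 48.5 CPM in KO1+MK (log2 fold change −0.61, SE 0.0413, adjusted p = 1.78e-07). POLR1G fell with a log2 fold change of −0.80, whereas POLR1A (−0.16), POLR1C (−0.27, adjusted p = 0.0034) and POLR1D (−0.07) did not pass. The snoRNP proteins NOP56 (−0.43), NOP58 (−0.48) and DKC1 (−0.41), the helicase DDX21 (−0.49) and the abundant nucleolar protein nucleolin, NCL (−0.29), fell by moderate amounts, and nucleophosmin, NPM1 (−0.15), did not pass. Only 8 of the 48 fell by 1.5-fold or more. Between 33 and 54 were lower with 1 library left out.

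Of 23 cyclins, CDK inhibitors and their partners, CDKN1A rose, CCNE2 was at 20.6, 20.3 and 22 CPM in KO1 and 27.1, 27.8 and 27.4 CPM in KO1+MK (log2 fold change 0.41, SE 0.0508, adjusted p = 2.85e-05), and CCND1 (−0.40), CDK4 (−0.27) and E2F8 (−0.29) fell. CCNE1 (0.09), CCND3 (0.16), CDK2 (−0.04) and RB1 (0.03) did not pass. In the S phase list 2 of 43 rose and 10 fell, with a median of −0.10. CDCA7, a MYC-responsive gene needed for DNA methylation at repeats, was at 33.5, 32.8 and 30.9 CPM in KO1 and 16.5, 22.3 and 20.3 CPM in KO1+MK (log2 fold change −0.69, SE 0.0777, adjusted p = 1.35e-05), and POLR1B, described above, belongs to this list too. In the G2/M list 4 of 54 rose and 8 fell, with a median of −0.04. PSRC1, a spindle protein, was at 83.3, 82 and 81.7 CPM in KO1 and 54.9, 63.8 and 60.1 CPM in KO1+MK (log2 fold change −0.44, SE 0.0441, adjusted p = 4.92e-06), and GAS2L3, a cytoskeletal linker, was at 79.5, 75.1 and 79.7 CPM in KO1 and 96.3, 97.2 and 99 CPM in KO1+MK (log2 fold change 0.34, SE 0.0359, adjusted p = 6.95e-06). Both shares of fallen genes, 10 of 43 and 8 of 54, stand beside 8.26% of all genes, and the rises of these lists beside 10.9%. These counts were unstable. S phase genes that fell numbered 5 without KO1 replicate 1 or 3, 6 without KO1 replicate 2 or KO1+MK replicate 3, and 14 without KO1+MK replicate 1, and those that rose numbered 1 without KO1 replicate 1, KO1 replicate 3 or KO1+MK replicate 2 and 4 without KO1+MK replicate 1. G2/M genes that fell numbered 4 without KO1 replicate 1 or 3 and 13 without KO1+MK replicate 1, and 2 rose without KO1 replicate 1. Cyclin list members that fell numbered 1 without any 1 of the KO1 libraries, and 4 rose without KO1+MK replicate 1.

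Of 19 genes of the unfolded protein response, 11 rose and none fell (none at an unadjusted p under 0.05 in edgeR and none called by DESeq2), with a median of 0.21. DNAJB9, an endoplasmic reticulum cochaperone, was at 13.6, 13.9 and 14.5 CPM in KO1 and 31.4, 31.7 and 32.1 CPM in KO1+MK (log2 fold change 1.21, SE 0.0509, adjusted p = 4.63e-09). ERN1, which encodes the stress sensor IRE1, was at 21.8, 23.6 and 22.2 CPM in KO1 and 49.3, 44.6 and 48.4 CPM in KO1+MK (log2 fold change 1.10, SE 0.055, adjusted p = 1.66e-08). HERPUD1 (1.06), the chaperone gene HSPA5 (0.33) and XBP1 (0.27) were among the others that rose, and 7 rose without KO1 replicate 1, KO1 replicate 3, KO1+MK replicate 2 or KO1+MK replicate 3, against 14 without KO1+MK replicate 1. The ATF4 amino acid program held 5 risen and 2 fallen genes of 45, with a median of −0.04. Its share of rises was thus near that of all genes tested, 10.9%, beside 8.26% of all genes that fell. SESN2, a sestrin that reports leucine to mTORC1, was at 13, 14.1 and 11 CPM in KO1 and 26.4, 23.3 and 23.1 CPM in KO1+MK (log2 fold change 0.95, SE 0.0878, adjusted p = 2.44e-06), and ATF4 itself rose (0.32), while ASNS (0.20), PHGDH (0.14) and TRIB3 (−0.23) did not pass. The 2 falls of this list became 6 without KO1+MK replicate 1, 0 without KO1 replicate 1 or 2, and 1 without any 1 of the other libraries. They numbered 7 with DESeq2, 5 with upper-quartile factors or protein-coding genes only, 4 with 18 libraries in 1 fit, 1 with library totals and 8 without the low-count filter, against 4 to 6 rises, so which direction was more frequent depended on the tool, the scaling and the filter. Of 23 heat shock and oxidative stress genes, 4 rose and none fell (5 fell at an unadjusted p under 0.05 in edgeR and 1 was called lower by DESeq2). HSPA1B, an inducible HSP70, was at 47.3, 48.1 and 51.8 CPM in KO1 and 92.6, 92 and 99.5 CPM in KO1+MK (log2 fold change 0.97, SE 0.045, adjusted p = 9.29e-09), and its near-identical copy HSPA1A, with which reads may be shared, had a log2 fold change of 0.65. DNAJB1, an HSP40, was at 162, 164 and 171 CPM in KO1 and 297, 279.9 and 286 CPM in KO1+MK (log2 fold change 0.82, SE 0.039, adjusted p = 1.12e-08), and without KO1+MK replicate 1 this list held 6 rises and 2 falls.

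**Figure D3:**
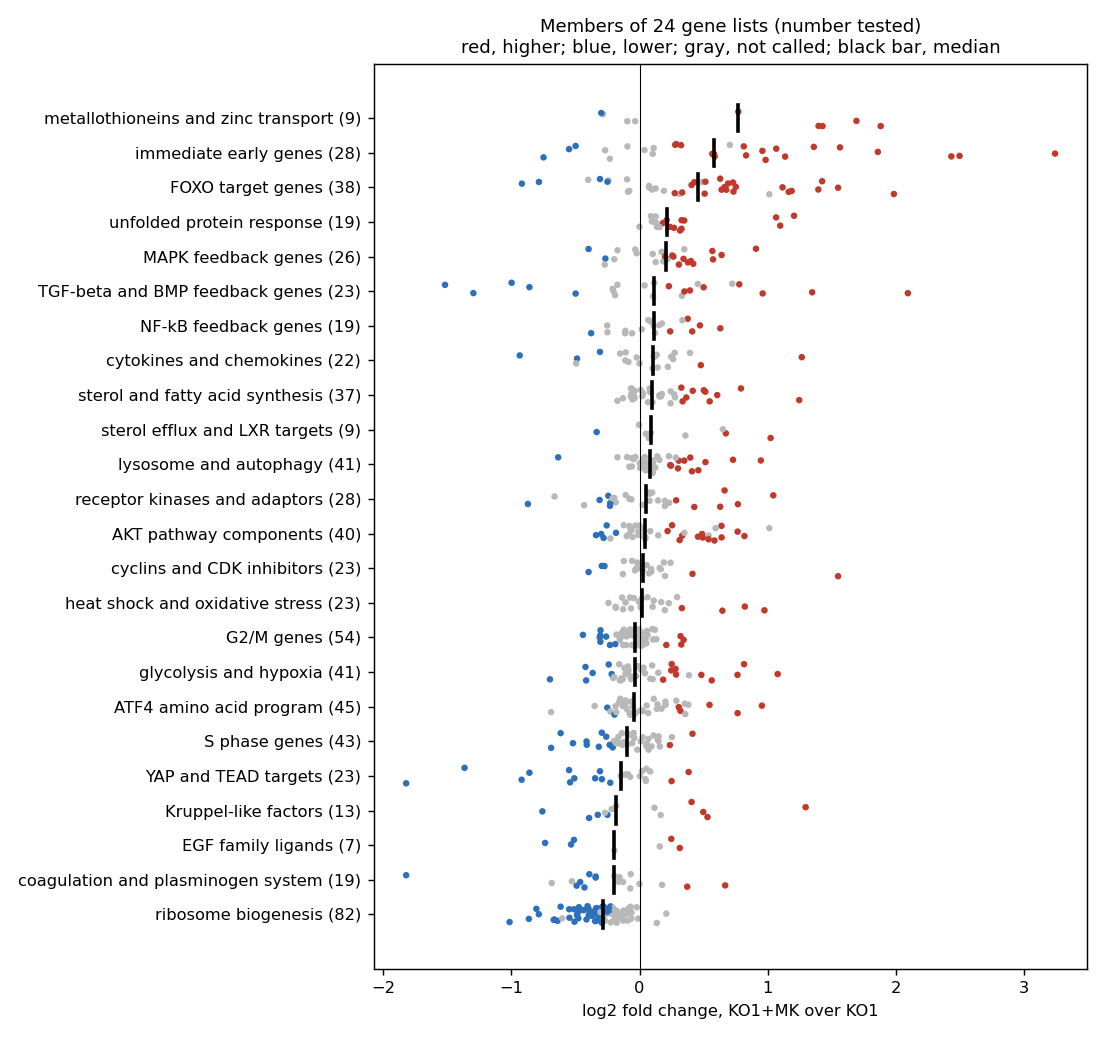
Log2 fold changes of KO1+MK over KO1 on the x axis for the measured members of 24 gene lists, 1 point per gene, with red and blue for genes past an adjusted p of 0.001, gray otherwise and a black bar at the median of each list. Metallothioneins (0.77), immediate early genes (0.58) and FOXO targets (0.46) have the highest medians and ribosome biogenesis (−0.28) the lowest.

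Genes of glucose use and hypoxia moved both ways, with 10 of 41 higher, 6 lower and a median of −0.04. ARRDC3, an arrestin-domain protein related to TXNIP, was at 19, 19.1 and 17.7 CPM in KO1 and 38.7, 38.4 and 38.6 CPM in KO1+MK (log2 fold change 1.08, SE 0.049, adjusted p = 8.72e-09). SLC2A3, which encodes the glucose transporter GLUT3 and may share reads with its close copy SLC2A14, was at 56.4, 55.9 and 62.2 CPM in KO1 and 95.3, 102 and 104 CPM in KO1+MK (log2 fold change 0.81, SE 0.0459, adjusted p = 4.76e-08). GLUT1, SLC2A1 (−0.36), hexokinase 2, HK2 (−0.42), VEGFA (−0.42) and ADM (−0.70) fell, and GAPDH (−0.03), PGK1 (−0.04) and LDHA (−0.14) did not pass. The number that rose was 4 without KO1 replicate 1 and 5 without any 1 of KO1 replicate 2, KO1 replicate 3, KO1+MK replicate 2 and KO1+MK replicate 3. Of 41 lysosome and autophagy genes, 11 rose and 1 fell, with a median of 0.09. ULK1, the kinase that starts autophagy, was at 31.3, 32.9 and 30.8 CPM in KO1 and 60.5, 57.7 and 61.8 CPM in KO1+MK (log2 fold change 0.95, SE 0.046, adjusted p = 1.36e-08), and GABARAPL1, an ATG8 protein of autophagosomes, was at 14.1, 14.4 and 13.8 CPM in KO1 and 21.4, 23.3 and 24.2 CPM in KO1+MK (log2 fold change 0.73, SE 0.0582, adjusted p = 7.16e-07). SQSTM1 (0.30) and MAP1LC3B (0.35) rose, MITF (−0.63) fell, and the lysosomal genes LAMP1 (0.00), CTSB (0.02) and CTSD (0.01) did not pass, with 7 rises in this list without KO1 replicate 1.

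Of 22 cytokines and chemokines, 2 rose and 3 fell, beside 10.9% of all genes tested that rose and 8.26% that fell. IL11, a cytokine of the IL-6 family secreted by breast cancer cells, was at 106, 97.3 and 104 CPM in KO1 and 237, 244 and 244 CPM in KO1+MK (log2 fold change 1.26, SE 0.0371, adjusted p = 2.27e-10), a 2.40-fold rise. CCL2, a monocyte chemoattractant, was at 29.6, 28.2 and 37.8 CPM in KO1 and 15.4, 16.7 and 17.1 CPM in KO1+MK (log2 fold change −0.93, SE 0.0981, adjusted p = 7.41e-06). IL6 (−0.09), CXCL8 (0.12), LIF (0.00) and CSF2 (0.14) did not pass, and 4 members rose without KO1 replicate 2. NF-kB feedback genes numbered 5 higher and 1 lower of 19. REL, an NF-kB subunit, was at 14.8, 17 and 13.3 CPM in KO1 and 26.4, 20.1 and 22.3 CPM in KO1+MK (log2 fold change 0.63, SE 0.104, adjusted p = 0.0003), and the adhesion molecule ICAM1 was at 42.3, 50.2 and 39.6 CPM in KO1 and 59.8, 59.9 and 60.3 CPM in KO1+MK (log2 fold change 0.47, SE 0.0685, adjusted p = 0.000109). The call for REL was lost without KO1 replicate 1 or 3 (adjusted p of 0.00311 and 0.00306), and the call for ICAM1 was lost without KO1 replicate 1 (adjusted p = 0.00159). NFKBIA (0.38) rose and TNFAIP3 (−0.38) fell, and the list held 1, 2 and 3 rises without KO1 replicate 1, KO1 replicate 3 and KO1+MK replicate 2, and 6 rises and 3 falls without KO1+MK replicate 1. Of 7 EGF family ligands 3 fell and 2 rose. AREG, amphiregulin, was at 26.9, 26.6 and 26.5 CPM in KO1 and 15.1, 16 and 16.1 CPM in KO1+MK (log2 fold change −0.74, SE 0.0506, adjusted p = 2.08e-07), NRG1, neuregulin 1, was at 55.1, 57.2 and 58.7 CPM in KO1 and 38.8, 39.8 and 37.6 CPM in KO1+MK (log2 fold change −0.53, SE 0.0439, adjusted p = 9.2e-07), and EREG (−0.51) fell too. HBEGF (0.31) and TGFA (0.25) rose, and 1 of them passed without any 1 library other than KO1+MK replicate 1.

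Coagulation genes and YAP/TEAD targets held more falls than rises. Of 19 coagulation and plasminogen genes 7 fell and 2 rose, with a median of −0.20, and F3, described above, fell most. The protease-activated receptors F2RL1 (−0.49), F2R (−0.39) and F2RL2 (−0.46), the urokinase gene PLAU (−0.34) and THBS1 (−0.34) fell, whereas the urokinase receptor gene PLAUR rose, at 62.2, 62 and 56 CPM in KO1 and 88.4, 96.5 and 96.4 CPM in KO1+MK (log2 fold change 0.67, SE 0.046, adjusted p = 2.12e-07), and 1 member rose without KO1 replicate 2, KO1 replicate 3 or KO1+MK replicate 3. Of 23 YAP and TEAD targets 11 fell and 2 rose, with a median of −0.15, and 12 fell and 2 rose without KO1+MK replicate 1. FJX1, a secreted four-jointed relative, was at 60.5, 55.5 and 60.0 CPM in KO1 and 19.7, 24.5 and 22.9 CPM in KO1+MK (log2 fold change −1.36, SE 0.0635, adjusted p = 9.67e-09). AJUBA, an inhibitor of LATS kinases (−0.92), TGFB2 (−0.86), CCN1 (−0.55) and ANKRD1 (−0.51) fell, whereas CCN2, the relative of CCN1 (0.38), rose. Of 23 TGF-beta and BMP feedback genes 8 rose and 5 fell. ID4 and ID2 (1.35) rose while ID1 (0.11) and ID3 (−0.17) did not pass, and the secreted antagonists NOG and FST (−1.29) fell with INHBA (−1.0). Of 13 Kruppel-like factors 4 rose and 4 fell. KLF9, a glucocorticoid-induced repressor, was at 5.51, 4.73 and 4.35 CPM in KO1 and 12.1, 11.9 and 11.3 CPM in KO1+MK (log2 fold change 1.29, SE 0.0965, adjusted p = 3.97e-07), and KLF15 was at 5.35, 4.06 and 5.04 CPM in KO1 and 2.91, 3.00 and 2.51 CPM in KO1+MK (log2 fold change −0.76, SE 0.144, adjusted p = 0.000885). The KLF15 call was lost in the libraries drawn down to equal depth (adjusted p = 0.00466) and without KO1 replicate 1, KO1 replicate 3, KO1+MK replicate 2 or KO1+MK replicate 3 (adjusted p of 0.00211 to 0.00818), and the list held 1 or 2 falls without any 1 library other than KO1+MK replicate 1 or 3.

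KO2 cells, edited with the other sgRNA set and treated in the same way, shared no library with the KO1 comparison. In KO2, 764 genes were higher with MK2206 (4.9%) and 336 lower (2.16%) by the same rule, and without a minimum fold 13.1% of genes were higher and 8.78% lower. All 781 genes called in KO1 had the same sign in KO2, against 83.8% of all tested genes, and 719 of them passed an adjusted p of 0.001 there. The higher genes shared by both lines numbered 436, which is 84.7% of those of KO1 and 57.1% of those of KO2, and the lower genes shared numbered 202, or 75.9% and 60.1%. No gene was called in opposite directions. The log2 fold changes of the 2 lines had a Pearson r of 0.822 and a Spearman rho of 0.81 over 15587 genes, a description across genes that are not independent. Medians of the KO1 calls were 0.80 in KO1 and 0.87 in KO2 for higher genes, and −0.78 and −0.74 for lower genes.

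The difference between the responses was tested directly, as an interaction in a fit of the 12 KO libraries. No gene passed an adjusted p of 0.001 with a 1.5-fold difference in edgeR, where 1251 genes had an unadjusted p under 0.05. DESeq2 had 911 such genes and called 5, CSF2 and CSF3 with a higher response in KO1 and ABTB2, MIR663AHG and MT1X with a higher response in KO2. Without a minimum fold, edgeR called 2 genes (0.0128% of those tested), DUSP1 and CCN2, which are named for this result after their values were seen. At an adjusted p of 0.05 with no minimum fold, 38 of all tested genes differed (0.244%). DUSP1, an early MAPK phosphatase, was at 95.5, 101 and 102 CPM in KO1 and 115, 121 and 117 CPM in KO1+MK (log2 fold change 0.26, SE 0.0361, adjusted p = 6.84e-05), and its log2 fold change in KO2 was 0.82, a difference of −0.55 (SE 0.052, adjusted p = 5.93e-05). CCN2, connective tissue growth factor, was at 481, 487 and 478 CPM in KO1 and 612, 627 and 616 CPM in KO1+MK (log2 fold change 0.38, SE 0.0322, adjusted p = 1.09e-06), against 0.80 in KO2, a difference of −0.41 (SE 0.0438, adjusted p = 0.000175). Both genes rose in both lines and rose more in KO2. Without KO2+MK replicate 1, 2 genes passed the rule with the minimum fold, CDKN1A (−0.76, adjusted p = 0.000585) and SLC30A1 (−0.60, adjusted p = 0.000585), both with a smaller rise in KO1.

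**Figure D4:**
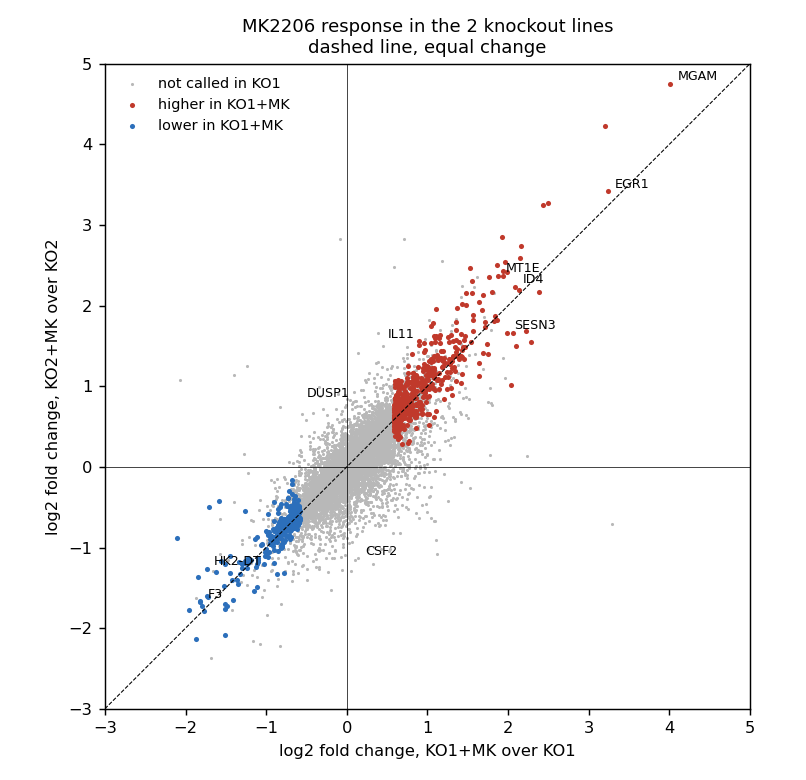
Log2 fold change with MK2206 in KO1 on the x axis and in KO2 on the y axis for 15587 genes, with genes called higher in KO1 in red, lower in blue and others in gray, and a dashed line of equal change. Red and blue points lie in the quadrants of equal sign, and MGAM (4.01 and 4.75) and EGR1 (3.24 and 3.42) are at the top right.

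The myrAKT line, in which AKT is held active, was set beside the treated KO1 cells to see where the called genes stood with more AKT activity. No library was shared between the 2 comparisons. Of the 515 genes higher with MK2206, 17.1% were higher in myrAKT than in WT at an adjusted p of 0.001 and 11.1% were lower, against 12.7% and 17.3% of all genes tested (4.94% and 8.83% with the minimum fold), with a median log2 fold change of 0.12. Of the 266 lower genes, 18.0% were higher in myrAKT and 32.0% lower, with a median of −0.10. F3 (−1.31 in myrAKT), DKK1 (−1.26), FJX1 (−1.10) and MIR137HG (−1.09) were thus lower in both comparisons, whereas TNS4 (1.26) and IRS1 (0.21) were lower with MK2206 and higher in myrAKT. SESN3 (2.91), CDKN1A (0.75), PIK3R1 (0.67) and SPRY4 (0.79) were higher in both. The sterol gene INSIG1 (−0.94) and the exporter gene SLC30A1 (−0.37) were lower in myrAKT and higher with MK2206, and EGR1 (adjusted p = 0.988) and FOS (adjusted p = 0.999) did not pass in myrAKT. Among sterol synthesis genes, 22 of 37 were lower in myrAKT (median −0.44), and among S phase genes 25 of 43 were higher and 1 lower (median 0.30). In the FOXO list 8 of 38 were higher and 10 lower in myrAKT (median −0.05).

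Levels over all 6 groups show where treated KO1 cells stood relative to untreated parental cells. SESN3 was at 6.04 ± 0.471 CPM in WT, 5.71 ± 0.43 in KO1, 22.2 ± 3.14 in KO1+MK, 13.3 ± 0.639 in KO2, 41.6 ± 8.03 in KO2+MK and 45.7 ± 1.08 in myrAKT (SD, n = 3 each). F3 was at 229 ± 10.5, 543 ± 39.3, 151 ± 12.7, 369 ± 11.9, 115 ± 11.9 and 92.4 ± 4.61 CPM in the same order. RRS1 was at 16.7 ± 1.31, 29.1 ± 1.31, 14.1 ± 1.73, 30.1 ± 0.418, 14.3 ± 1.33 and 18.7 ± 0.948 CPM. The mean of treated KO1 cells was thus below that of WT for RRS1 and F3 and above it for SESN3, which was not tested, and the comparison of KO1 with WT uses the same KO1 libraries as the drug comparison, so no relation between the 2 is given.

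**Figure D5:**
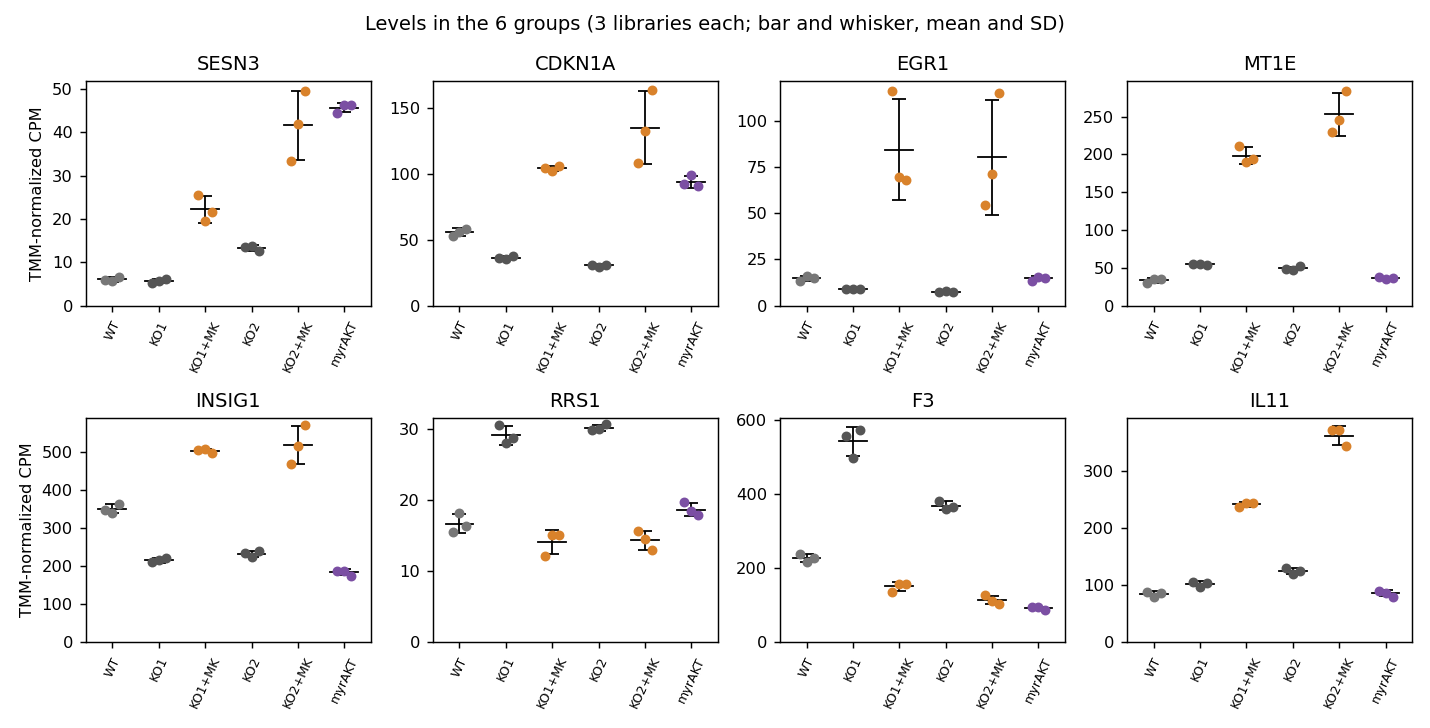
Levels of 8 genes in the 6 groups on linear y axes that start at 0, in TMM-normalized CPM, with 1 point per library (gray untreated, orange treated with MK2206, purple myrAKT) and a bar and whiskers at the mean and SD of 3 libraries. KO1+MK lies above KO1 for SESN3, CDKN1A, EGR1, MT1E, INSIG1 and IL11 and below it for RRS1 and F3, and KO2+MK lies on the same side of KO2 for each of the 8.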

How the data were processed

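RNA of MDA-MB-231 cells (3 libraries in each of 6 groups) was sequenced after removal of ribosomal RNA, with all 18 libraries pooled. The deposited unit is the count, a whole number of reads per Ensembl gene as the authors made it, without normalization. The submitters' processing notes name FastQC, Trim Galore, HISAT2, featureCounts and MultiQC with hg38, and the annotation, the versions and the strand setting are not given in the sources used here. Groups came from the sample labels. Symbols and positions came from GENCODE release 44 and promoters from RefSeq (11024 of 15587 tested genes matched, 250 bases before the start searched).

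KO1+MK was compared with KO1 by edgeR 4.0.16 (TMM normalization, two-sided quasi-likelihood test on 6 libraries, Benjamini-Hochberg adjustment over 15587 genes) in R 4.3.3 with limma 3.58.1. A fold change of at least 1.5 with an adjusted p of at most 0.001 defined a call, and lists were counted at that adjusted p with no limit on the fold. CPM values are TMM-normalized over the 18 libraries, except those of the filter and of the cell type markers, which are scaled by library total. Adjusted p values are those of edgeR unless named otherwise. An exact permutation test of 3 against 3 libraries cannot give a p below 0.1, so none was used. KO2+MK against KO2 and myrAKT against WT were fitted on their own 6 libraries, and the difference of the responses on the 12 KO libraries.

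The members, the gene lists (23 hand-written lists and the cell cycle lists of Seurat 5.3.0) and the tests were chosen with earlier results of these data known, and 7 further lists after values were seen. Named genes are GPS2, AKT1 and AKT2, the 10 genes that rose and the 10 that fell most among called genes with a symbol, a mean of at least 100 normalized counts in the higher group and groups that do not overlap, and the 2 members of each list with the largest change, with other members given by value. Some named genes and members, and 1 list, are not reported here. DUSP1 and CCN2 were named after their values were seen, as were neighbours of named noncoding genes, MT-RNR2 and XAGE1A. The filter left out HTR2B and kept PRKACB-DT as genes next to its limit (0.9993 and 1.002 CPM in the library of rank 3).

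Alternatives were DESeq2 1.42.0, other scalings, filters, thresholds and fits, a replicate block, equal depth, and each library left out in turn. Replicates differed by more than counting error (mean chi-square per gene 1.99 to 6.42 in pairs of the 6 libraries), and none was counted as a duplicate. Checked on simulated counts of KO1 and KO1+MK (15587 genes), the fit called 27 of 68 genes changed 1.5-fold, 56 of 66 changed 2-fold, 66 of 66 changed 4-fold and 0 of 15387 unchanged. With no minimum fold, 52 of the 68 and 1 of the 15387 passed. Changes were placed only in genes above a minimum expected count, so recovery at the lowest levels was not simulated. Figures were made with Python 3.11.15 and matplotlib 3.10.9.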

Additional observations from a re-analysis of the deposited data

Results flagged for a closer look

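The response to MK2206 differed between KO1 and KO2 at an adjusted p of 0.05 or less, in the edgeR test of the difference, for 16 of the 714 genes named or listed (2.24%), against 38 of 15587 tested genes (0.244%), shares that are a description since the lists were chosen with earlier results known, and each difference is given as KO1 minus KO2 on the log2 scale. The rise was smaller in KO1 for ATF4 (−0.29, adjusted p = 0.0445), CCN2 (−0.41, adjusted p = 0.000175), DUSP1 (−0.55, adjusted p = 5.93e-05), HBEGF (−0.34, adjusted p = 0.0155), IL11 (−0.28, adjusted p = 0.0486), MAFF (−0.36, adjusted p = 0.0325), MT1E (−0.49, adjusted p = 0.0296), MT1X (−0.60, adjusted p = 0.0473), NFKBIE (−0.42, adjusted p = 0.0473), PPP1R15A (−0.35, adjusted p = 0.0216). GADD45A fell in KO1 (−0.31) and had a log2 fold change of 0.19 in KO2 (adjusted p = 0.0111 there), a difference of −0.50 (adjusted p = 0.0122). KLF5 and THBS1 fell in KO1 (−0.39 and −0.34) with 0.05 and 0.01 in KO2 that did not pass, differences of −0.44 (adjusted p = 0.0155) and −0.36 (adjusted p = 0.0229). CSF1 and CSF2 fell in KO2 (−0.34 and −1.13) and not by the test in KO1 (0.10 and 0.14), differences of 0.44 (adjusted p = 0.0155) and 1.27 (adjusted p = 0.0169). CSF3 passed in neither line at 0.001 (0.39 in KO1 and −0.74 in KO2), with a difference of 1.13 (adjusted p = 0.0403). CSF2 and CSF3 were at 11.2 and 12.7 CPM in KO1 and at 3.37 and 3.5 CPM in KO2. With 3 libraries in each group, no single value was tested for an outlier by Dixon's criterion, and KO1+MK replicate 1, which stood apart from its replicates, is described with the samples.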

How the results depend on the processing

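The counts of genes higher (515) and lower (266) with MK2206 in KO1 moved by more than 1.5 times under few alternatives. Testing against 1.5-fold with glmTreat gave 105 and 37, an adjusted p of 0.05 with the same fold 901 and 458, no minimum fold 1697 and 1288, and no low-count filter 418 lower genes, in a fit whose prior degrees of freedom were infinite, so that no gene had a spread of its own. In KO2 an adjusted p of 0.05 gave 613 lower genes against 336. For the difference between lines, DESeq2 gave 2 higher and 3 lower, an adjusted p of 0.05 with the same fold 3 and 4, and leaving out 1 library 0 higher and 0 to 2 lower. With 1 library left out, 386 to 485 genes were higher and 210 to 313 lower in KO1, and 579 to 855 and 257 to 371 in KO2. The share of higher genes among KO1 calls was 65.9%, and 60.1% with upper-quartile factors, 71.1% with library totals, 73.9% with glmTreat and 61.4% without the low-count filter, and none of these scalings moved the median of all genes by more than 0.04. Same-numbered KO1 and KO1+MK libraries deviated together with r of 0.0613, −0.02 and 0.127 over 11955 genes, and not every library correlated best with its own number, so the replicate numbers were not taken to pair the libraries. With a replicate block the counts were 507 and 264 in KO1, 794 and 367 in KO2 and 0 and 0 for the difference, and the block ended the calls of AKT2 (adjusted p = 0.00166) and KLF15 (adjusted p = 0.00125) among the named genes. Of 1117 values of 66 named genes under 17 alternatives none changed sign and 26, in 7 genes, lost the threshold, all given with the genes except AKT2 and KLF15 with library totals (adjusted p of 0.00129 and 0.0013) and DUSP1 with 18 libraries in 1 fit (adjusted p = 0.00622). Among the gene lists given, counts that moved by more than 1.5 times under another tool, scaling or filter, beside those of the ATF4, immediate early and ribosome biogenesis lists above, were these. Without the low-count filter falls numbered 8 of receptor kinases (5 in the fit reported), 10 of glycolysis and hypoxia (6), 16 of S phase (10), 3 of NF-kB (1), 2 of lysosome and autophagy (1), 2 of heat shock and 2 of clock genes (0 in both) and 42 of ZNF genes (24). With library totals falls were 2 of FOXO targets (4), 3 of receptor kinases (5), 3 of the AKT pathway (5) and 2 of Kruppel-like factors (4), and 4 cyclin list members rose (2). At equal depth 2 Kruppel-like factors fell and 1 coagulation gene (2) and 1 S phase gene (2) rose, the last also with upper-quartile factors. NF-kB falls were 2 with DESeq2, protein-coding genes only, or 12 or 18 libraries in 1 fit, and 1 heat shock gene fell with DESeq2, upper-quartile factors, protein-coding genes only or 18 libraries in 1 fit. Changes under 2-fold were recovered in part in the simulation, so a gene outside the calls is not shown to be unchanged.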

Other observations

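Further gene groups were chosen after their values were seen and are given as values with no support drawn from them. Over all genes tested, 10.9% rose with MK2206 in KO1 and 8.26% fell without a minimum fold. In the MYC, MAX and MXD network 3 of 13 measured genes rose and 3 fell at an adjusted p of at most 0.001. The MXD repressor genes MXD1 (1.16) and MXD4 (0.77) rose with MXI1 (0.28), while MYC (−0.75), the E-box factor TFAP4 (−0.96) and MLX (−0.37) fell. Among Eph receptors and ephrins, which signal at cell contacts, 6 of 16 rose and none fell (1 at an unadjusted p under 0.05 in edgeR and none by DESeq2), with EPHB3 at 4.24 ± 0.229 CPM (SD, n = 3) in KO1 and 13 ± 0.327 CPM (SD, n = 3) in KO1+MK (1.64) and the ligands EFNB1 (0.64) and EFNB2 (0.60) among them. Of 15 Notch receptors, ligands and targets 4 rose, namely NOTCH3 (1.56), DLL1 (1.13), NOTCH1 (0.62) and JAG1 (0.34), while the targets HES1 (0.05) and NRARP (0.16) did not pass.

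Alpha-arrestins, which direct receptors and glucose transporters to uptake, rose in 4 of 5 measured members, TXNIP (1.11), ARRDC3 (1.08), ARRDC2 (0.82) and ARRDC4 (0.76), with ARRDC1 at −0.17. The counts of this paragraph also stand beside 10.9% of all genes tested that rose and 8.26% that fell. Clock factors rose in 5 of 18 members, among them BHLHE40 (1.02), PER1 (0.82) and CRY2 (0.97), whereas CLOCK (0.10) and PER2 (−0.04) did not pass. Of 11 PIM kinases and SOCS proteins, PIM1 (0.60), PIM2 (0.66) and SOCS7 (0.70) rose, and SOCS2 fell from 59.3 ± 1.99 CPM (SD, n = 3) in KO1 to 27.1 ± 2.97 CPM (SD, n = 3) in KO1+MK (−1.10). Of 441 zinc finger genes with a ZNF number, 94 rose and 24 fell, with a median of 0.21, and 41, 57 and 50 rose without KO1 replicate 1, 2 and 3, with 11 and 12 falls without KO1 replicate 1 and 3. HELLPAR, a long noncoding RNA, was at 4.59, 5.44 and 4.71 CPM in KO1 and 31.2, 9.20 and 9.04 CPM in KO1+MK (adjusted p = 0.00314), highest in the library that stood apart.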
